A study of Drosophila melanogaster with 2 samples.

Results

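The general RNA polymerase II machinery comprises the polymerase itself, the general transcription factors that place it at a promoter, and Mediator, the large complex that links it to DNA-bound regulators. TFIID, built from the TATA-binding protein and its associated factors (TAFs), recognises the core promoter. TFIIA and TFIIB join it, TFIIF accompanies the polymerase, and TFIIE brings in TFIIH, which opens the DNA. Most genes for these proteins are active in nearly every cell type, though variant genes of some subunits need not be. Here they were examined as targets: which of their promoters were recovered in chromatin with the protein of CG18476.

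Members were the protein-coding genes of the Ensembl annotation whose symbol begins with Taf and a digit, with TfII, with MED and a digit, or with Polr2. This gave 62 genes of 13945 protein-coding genes on the 6 chromosome arms 2L, 2R, 3L, 3R, 4 and X: 15 Taf, 9 TfII, 25 MED and 13 Polr2 genes. Chromatin immunoprecipitation and sequencing (ChIP-seq) was done with an antibody against GFP on whole Drosophila melanogaster embryos, 0 to 24 h old and of pooled sexes, from a transgenic line that stably expresses CG18476 with eGFP at its carboxyl end. There was 1 group with 2 biological replicates, named for the same line, and each was a mixture of all embryonic tissues and stages. The promoter that drives the transgene is not given in the sources used here, a mock precipitation was not analysed here, and expression was not measured, so the tissue label could not be checked against marker genes. A lower signal from fewer cells with the protein at a site and one from less protein per cell cannot be told apart in such material.

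Signal is the authors' value per listed region, in units that the sources used here do not define, and no read depth is known. In the deposited dm6 set that passed the authors' reproducibility threshold (irreproducible discovery rate, IDR), 3995 peaks had signals from 60.6 to 1948. The pooled reads and each replicate also had a full list of 30000 peaks and background regions. A gene was counted as having a promoter peak where a summit lay 500 bp or less from any of its annotated transcription start sites (TSSs). At the member promoters the sum of both replicates' signals was 1.00 times the pooled signal (median over 19 genes, range 0.925 to 1.05), so the replicate values below are on a scale about 2 times smaller than the pooled ones. With 1 group, no test between groups was possible, and all comparisons with other genes are descriptive.

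Of the 62 members, 19 (30.6%) had a thresholded promoter peak, against 17.7% of all protein-coding genes (2468 of 13945). The count was 3 of 15 for Taf (20.0%), 4 of 9 for TfII (44.4%), 8 of 25 for MED (32.0%) and 4 of 13 for Polr2 (30.8%). The Taf share was thus close to the background, and the others were above it. With 9 to 25 genes per class, these small counts do not separate the classes. Signals were moderate: the median over the 19 genes was 113 (range 65.1 to 281), against 108 (60.6 to 1948) over all protein-coding genes with a promoter peak. Their ranks among the 3995 peaks ran from 276 to 3630, with a median of 1595.

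**Figure D1:**
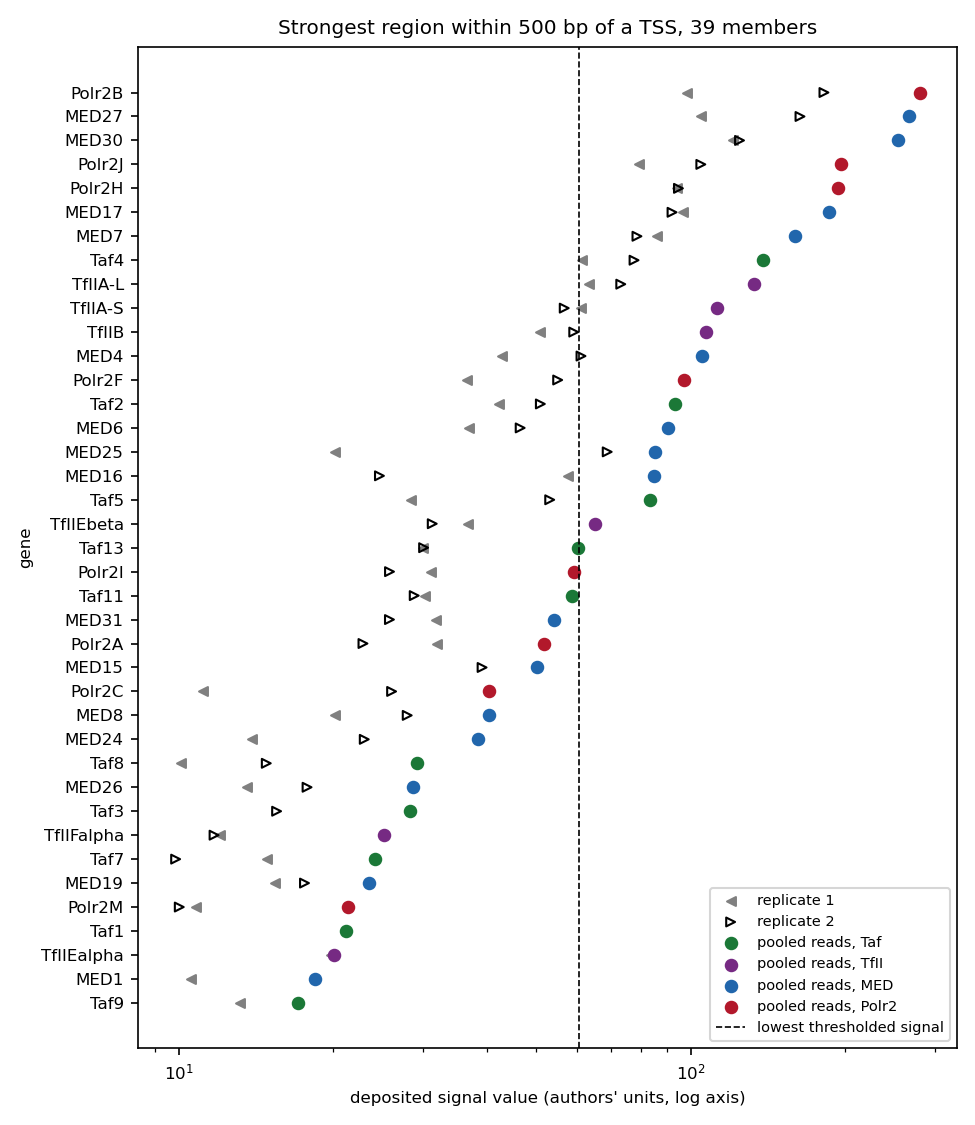
Strongest listed region within 500 bp of a TSS for the 39 members with a region in the pooled list, on a log axis in the authors' units. Coloured points are the pooled reads, grey and open triangles the 2 replicates where a region was listed, and the dashed line is the lowest thresholded signal, 60.6. Polr2B, MED27 and MED30 have the highest pooled signals, and Taf13 lies just left of the line.

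Among the polymerase genes, Polr2B, which encodes the second-largest subunit and part of the catalytic centre (3R:14125791-14130111, plus strand), had the highest signal of all members, 281, with 98.6 in replicate 1 and 182 in replicate 2. Polr2J, whose protein pairs with that of Polr2C in the assembly platform of the enzyme (2L:17409698-17410406), had 196, with 79.3 and 105 in replicates 1 and 2. Polr2H, which encodes a small subunit shared by the nuclear RNA polymerases (3L:21728932-21729694), had 194, with 93.9 and 94.7. Polr2F, for another shared subunit (3R:5371795-5372397), had 97.0, with 36.6 and 55.0. All 4 were in both replicates' lists, with nearly equal values at Polr2H and a replicate 2 value 1.85 times the other at Polr2B.

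The remaining 9 polymerase genes had no thresholded peak. Polr2A, which encodes the largest subunit with its carboxyl-terminal repeat domain, had a pooled region of 51.8, with 32.0 in replicate 1 and 22.9 in replicate 2. Polr2I had 59.2 (31.0 and 25.8), and both lay under the lowest thresholded signal. Polr2C, the partner of Polr2J, had 40.3 (11.1 and 26.1), and Polr2M had 21.4 (10.8 and 10.02). Polr2E, Polr2K and Polr2L, which encode further shared subunits, were listed only in replicate 1, with signals from 9.52 to 10.3. Polr2D and Polr2G, which encode the paired stalk subunits, had no region in any list. Subunits that form 1 enzyme thus differed: the second-largest subunit's gene ranked 276 of the 3995 peaks and the stalk genes had no listed region.

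The Mediator genes with a peak encode subunits of the head, middle and tail modules. MED27, a tail subunit gene (3R:5655139-5656336), had 267, with 105 in replicate 1 and 164 in replicate 2. MED30, for a subunit found in animals but not in budding yeast (3L:652987-654089), had 254, with 121 and 125. MED17, a central head subunit gene (3R:18189072-18191265), had 186, with 96.6 and 92.0. These 3 were high in both replicates and ranked between 264 and 830 in each.

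Of the middle module, MED7 (3R:10760071-10761032) had 160, with 85.8 and 78.6, and MED4 (3L:7249529-7250527) had 106, with 42.8 and 61.1. MED6, a head subunit gene (3R:9766031-9768984), had 90.2, with 37.0 and 46.5. In 2 tail subunit genes the replicates were far apart. MED25 (3R:20008947-20011712) had a pooled signal of 85.1, with 20.2 in replicate 1 and 68.7 in replicate 2, a ratio of 3.40. MED16 (2R:22183138-22185892) had 84.9, with 57.7 and 24.7, a ratio of 0.428. Neither was among the 3995 strongest regions of the replicate in which it was weak, with ranks of 6743 and 6262 there.

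Without a thresholded peak, 7 of the other 17 Mediator genes had a pooled region: MED31 (54.1), MED15 (50.1), MED8 (40.3), MED24 (38.5), MED26 (28.6), MED19 (23.5) and MED1 (18.5). MED15, which encodes the tail subunit that many activators contact, was listed in replicate 2 (39.1) and not in replicate 1. A further 6 were listed in a replicate only, with signals from 7.75 to 14.2: MED10, MED11, MED14, MED21, MED28 and MED9. MED14, the scaffold subunit gene, was listed with 7.86 in replicate 1 and 14.2 in replicate 2, from summits at -437 and 414 bp from its TSS (negative is upstream), and not in the pooled list. No list held a region at MED18, MED20, MED22 or MED23.

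Among the 9 TfII genes, 4 had a peak. TfIIA-L, which encodes the precursor of the large TFIIA subunits (3R:27251112-27256463), had 2 peaks, of 133 and 75.3, whose summits lay 161 bp upstream and 38 bp downstream of its TSS. Replicate 1 had a single region there (63.4) and the strongest of replicate 2 had 73.1. TfIIA-S, for the small subunit (3R:23890388-23891060), had 113, with 61.1 and 56.7. TfIIB, for the factor that bridges the promoter complex and the polymerase (2L:10431338-10433116), had 107, with 50.7 and 59.1. TfIIEbeta (3L:4287038-4288349) had the lowest signal of the 19, 65.1, with 36.7 and 31.3. Both main TFIIA genes thus had a peak.

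The other 5 TfII genes had no thresholded peak. TfIIEalpha, whose protein pairs with that of TfIIEbeta, had a pooled region of 20.1 and was absent from the list of replicate 2. TfIIFalpha had 25.2 (12.03 and 11.7), and TfIIFbeta was listed in the replicates only (13.3 and 9.999). TfIIA-S-2, a second gene of the small TFIIA subunit type, and TfIIS, whose protein helps a stalled polymerase to cleave its transcript, had no region in any list.

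Of the TFIID genes, 3 of 15 had a peak. Taf4, for a TFIID core subunit that activators contact (3L:16113212-16121651), had 139, with 61.5 in replicate 1 and 77.6 in replicate 2. Taf2, whose protein contacts the initiator (3L:9884411-9888683), had 93.2, with 42.2 and 50.9. Taf5, another core subunit gene (2R:10877312-10879673), had 83.2, with 28.4 and 53.1, and was not among the 3995 strongest regions of replicate 1. Just below the thresholded set stood Taf13 with 60.2 (30.04 and 30.1) and Taf11 with 58.8 (30.2 and 28.8). Pooled regions from 17.1 to 29.2 lay at Taf8, Taf3, Taf7, Taf1 and Taf9. Taf10, Taf10b and Taf12 were listed in replicate 1 only, and Taf12L and Taf6 nowhere. Taf1, the largest TFIID subunit gene, was listed in the pooled reads (21.2) and in neither replicate.

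The replicates were also read apart, since the thresholded set is 1 list over both. At the 19 members with a thresholded peak, the ranks in it were those of the pooled list. A peak in it need not be strong in each replicate. Among the 3995 strongest regions of replicate 1, 22 members (35.5%) had a promoter region, against 18.6% of all protein-coding genes. Replicate 2 gave 18 members (29.0%) against 17.0%, and both replicates together 15 (24.2%) against 14.0%. Of the 19 members with a thresholded peak, 17 were in the strongest part of replicate 1, 17 in that of replicate 2 and 15 in both. The 4 that were missed in a replicate were MED25 and Taf5 in replicate 1 and MED16 and TfIIEbeta in replicate 2. Replicate 1 added Polr2A, Polr2I, MED31, Taf11 and Taf13, and replicate 2 added MED15. The ratio of the replicate 2 to the replicate 1 signal had a median of 1.21 over the 19 genes and of 1.20 over 2453 protein-coding genes with a promoter peak and a region in both lists. The strongest regions of the replicates had summits a median of 35 bp apart at the 19 promoters, and over 100 bp apart at TfIIA-L (127 bp) and TfIIEbeta (106 bp).

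**Figure D2:**
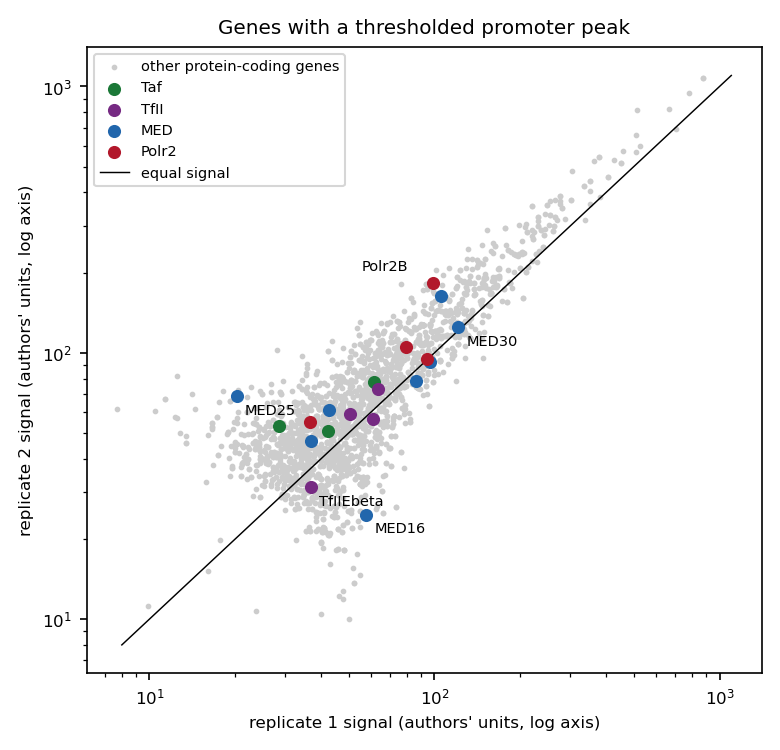
Signal of the strongest promoter region in replicate 1 (x axis) and replicate 2 (y axis), both log axes in the authors' units, for protein-coding genes with a thresholded promoter peak; each point is a gene, members are coloured and the line marks equal signal. MED25 (20.2 and 68.7) lies above the cloud's centre and MED16 (57.7 and 24.7) below it, while Polr2B and MED30 are high in both.

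In the full pooled list, 39 members (62.9%) had a region at the promoter, against 50.1% of protein-coding genes. The full list of replicate 1 gave 48 (77.4%, background 51.7%) and that of replicate 2 gave 39 (62.9%, background 47.7%). In at least 1 of these 3 lists, 52 members (83.9%) had a region, against 61.7%. The 10 without any were MED18, MED20, MED22, MED23, Polr2D, Polr2G, Taf12L, Taf6, TfIIA-S-2 and TfIIS. These lists include background regions by their title, so an entry is not by itself a binding site.

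By arm, 9 of the 21 members on 3R, 6 of 15 on 3L, 2 of 11 on 2L and 2 of 7 on 2R had a thresholded peak. Over all protein-coding genes the share was 19.4% on 3R, 18.8% on 3L, 17.7% on 2L and 16.5% on 2R. None of the 6 members on X and neither of the 2 on chromosome 4 (Taf3 and MED26) had a peak, where the background was 15.5% and 8.75%. These small counts do not separate the arms.

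The summits lay upstream of the members' start sites. In all 19 genes the strongest peak had its summit upstream of the nearest TSS, by 16 to 264 bp with a median of 127 bp. Over all 2468 protein-coding genes with a promoter peak, 89.1% were upstream, and the median signed distance was -152 bp. The second TfIIA-L peak was the only one of 20 with a summit downstream. Of the 20 summits, 12 were intergenic, 3 were in a 5' UTR (MED6, the second of TfIIA-L and, at Taf2, that of CalpB) and 5 were in other annotated sequence. Those 5 were introns of Taf4 and TfIIA-L upstream of an internal TSS, exons of antisense RNA genes at MED4 and MED7, and at Polr2F a 3' UTR of CG31542 and CG34277. With the most upstream TSS of each gene alone, 17 members kept a peak, and MED6 and TfIIA-L did not, since their summits lie at internal start sites.

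**Figure D3:**
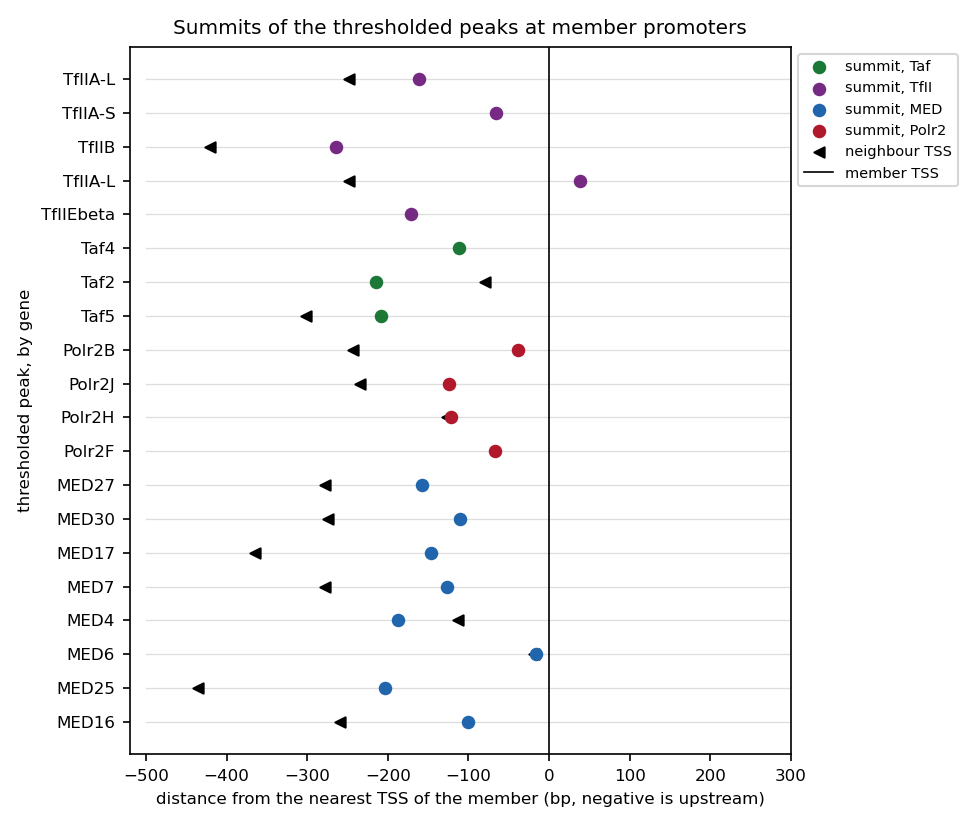
Summits of the 20 thresholded peaks at member promoters (coloured points) and TSSs of neighbouring genes within 500 bp of the summit (triangles), in bp from the member's nearest TSS at 0, with negative values upstream; each line is a peak. The summits lie between -264 and 38 bp, mostly between the member's TSS and that of a neighbour on the other strand.

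A summit shared with a neighbour was the usual case, so most of these peaks cannot be given to the member alone. At 15 of the 19 genes (78.9%) the TSS of another gene lay within 500 bp of the summit, against 63.7% of all protein-coding genes with a promoter peak. In each of the 15 the neighbour was on the opposite strand. At 13 (68.4%) the summit lay upstream of both the member and a protein-coding neighbour, that is between their start sites, against 51.8%. At Polr2B the summit was 39 bp upstream of its TSS and 204 bp upstream of that of 140up. At MED27 it was 157 bp upstream of its own and 121 bp upstream of the elm TSS, and at MED30 111 bp and 163 bp, the latter from Rev1, a gene of a translesion DNA polymerase. MED17 shared its summit with CG12321 (147 and 218 bp), MED25 with Hs6st (203 and 232 bp), MED7 with Cap-H2, a condensin II gene (127 and 151 bp), and MED16 with CG11170, 158 bp from the CG11170 TSS. Polr2J shared its summit with CG15141 (124 and 111 bp), Taf5 with Pex6, a peroxisome biogenesis gene (208 and 93 bp), and TfIIB with Bug22 (264 and 156 bp).

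Other pairs had start sites closer together or a summit close to the neighbour. At Polr2H it lay 121 bp upstream of the Polr2H TSS and 5 bp upstream of that of CG11247. The stronger TfIIA-L summit was 161 bp from TfIIA-L and 87 bp from pll, the gene of the kinase Pelle, and the MED6 summit was 16 bp from MED6 and 3 bp from Naa80. At Taf2 and MED4 the start sites of the member and its neighbour were 79 and 113 bp apart, and the summit lay past the neighbour's TSS, 135 bp inside CalpB and 74 bp inside asRNA:CR43470. The 4 genes without a TSS of another gene within 500 bp of the summit were Polr2F, Taf4, TfIIA-S and TfIIEbeta.

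Windows reaching up to 50 bases to either side of the summit show the sequence under the 6 strongest member peaks, which all lie between start sites, with TfIIA-S as a peak without a neighbour. They were read from the RefSeq copy of the dm6 assembly on the strand of the member gene and cut where an annotated exon began. Capitals mark matches on either strand to the core ATCGAT of the DNA replication-related element (DRE), to TATAAA of the core promoter, or to GAGAG, the letters that GAGA factor is known to bind.
Polr2B, 3R:14125702-14125790, plus strand: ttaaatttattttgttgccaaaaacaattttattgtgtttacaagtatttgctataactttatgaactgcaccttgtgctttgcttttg
MED27, 3R:5654932-5655032, plus strand: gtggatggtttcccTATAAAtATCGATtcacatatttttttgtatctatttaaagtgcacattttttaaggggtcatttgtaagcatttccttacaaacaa
MED30, 3L:654150-654250, minus strand: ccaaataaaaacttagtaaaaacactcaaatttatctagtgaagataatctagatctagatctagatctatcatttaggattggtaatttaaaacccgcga
Polr2J, 2L:17410480-17410580, minus strand: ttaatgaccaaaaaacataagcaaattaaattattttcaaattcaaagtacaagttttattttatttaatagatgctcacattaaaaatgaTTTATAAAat
Polr2H, 3L:21728807-21728861, plus strand: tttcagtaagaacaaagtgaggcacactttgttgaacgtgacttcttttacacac
MED17, 3R:18188875-18188975, plus strand: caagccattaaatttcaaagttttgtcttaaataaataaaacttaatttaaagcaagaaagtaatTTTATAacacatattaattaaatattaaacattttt
TfIIA-S, 3R:23891076-23891176, minus strand: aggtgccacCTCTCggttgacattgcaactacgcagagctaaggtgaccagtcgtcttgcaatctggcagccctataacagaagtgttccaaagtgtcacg

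Most of these windows were poor in G and C. Over the 20 summits the mean G+C content of the full windows (50 bases to either side of the summit) was 30.7% ± 13.6 (SD across peaks), against 32.9% ± 9.42 over 2022 promoter peaks. The spread was wide, from 11.9% at Taf2, 15.8% at MED17 and 16.8% at Polr2J to 51.5% at TfIIA-S and 60.4% at MED6. The low values at MED17 and Polr2J are visible above as runs of A and T, and the TfIIA-S window has a mixed composition.

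Known promoter motifs were few at the summits. The full DRE, TATCGATA, was in 0 of the 20 full windows, against 49 of 2022 promoter peaks (2.42%). Its core ATCGAT was in the MED27 window only (5.0%, against 6.48%). TATAAA was in 5 windows (25%, against 24.0%), those of MED17, MED25, MED27, Polr2J and Taf5, at a share close to that of all promoter peaks. GAGAG was in the TfIIA-S window only (5.0%, against 9.50%), and neither GGTCACAC, the core of the promoter element Motif 1, nor the E-box CAGCTG was in any (0.989% and 3.66% of all promoter peaks). These are matches to letters on either strand, and ATCGAT lies within TATCGATA. With 100 bases to either side, DRE appeared at MED7.

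Head-to-head arrangement was then compared with the presence of a peak, an analysis added after the shared summits were seen. A head-to-head gene was a protein-coding gene with a TSS of another protein-coding gene on the other strand within 1000 bp upstream. Of the members 44 (71.0%) were arranged so, against 36.2% of all protein-coding genes, and their median gap was 239 bp against 298 bp. Of those 44, 15 (34.1%) had a thresholded peak, close to the 32.2% (1626 of 5052) of all head-to-head genes. Of the 18 others, 4 (22.2%) had a peak, against 9.47% (842 of 8893). Among head-to-head genes the members were thus near the background, and among the others, with 4 called genes, they were above it. The part of gene arrangement in the difference over all 62 members was not tested.

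Peaks at head-to-head members were most frequent at intermediate gaps. The gaps of all head-to-head genes were divided into 3 classes of about equal size. With a gap of 227 to 409 bp, 8 of 13 members (61.5%) had a peak: MED16, MED17, MED27, MED30, MED7, Polr2B, Polr2J and Taf5, against 43.2% of all genes of that kind. With a gap up to 226 bp, 4 of 20 (20.0%) had one, against 29.1%, and with a gap of 410 to 1000 bp, 3 of 11 (27.3%), against 24.3%. In both sets the intermediate gaps had the highest share. The short-gap members without a peak include Taf10 and Taf10b, which are each other's neighbours 45 bp apart, MED20, 47 bp from Trf, a gene of a TBP-related factor, and Polr2D, 43 bp from Tgs1. TfIIA-L was placed by its nearest pair of start sites, with TTLL6B (105 bp), whereas its peaks lie at its internal TSS. Taf4 was likewise placed by its pair with Zn72D (586 bp), whereas its summit lies upstream of an internal TSS.

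**Figure D4:**
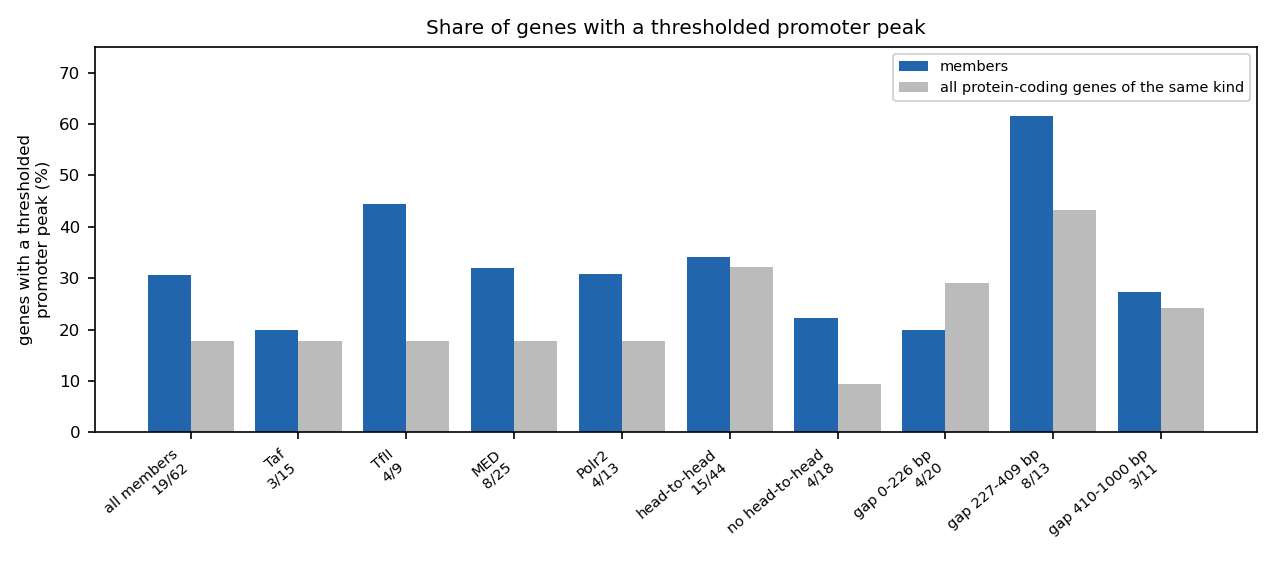
Percentage of genes with a thresholded promoter peak, for the members (blue, with the count called over the count of members below) and for all protein-coding genes of the same kind (grey); the first 5 pairs share the background of 17.7%. Head-to-head members (34.1%) stand beside 32.2% of all head-to-head genes, and the highest pair is the gap of 227 to 409 bp (61.5% and 43.2%).

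At the edge of the distance rule, the member with the farthest summit inside it was TfIIB at 264 bp. The nearest outside was MED15: a peak of 187 had its summit 529 bp upstream of the MED15 TSS and lies at the promoter of CG4297. The next was TfIIS, 782 bp from a peak of 91.8 that lies at the start of solo and vas. With a promoter distance of 1000 bp both entered and the count was 21, against 20.4% of protein-coding genes. No member had a thresholded summit inside its transcribed region other than its promoter peaks.

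Further genes of transcription, under other symbols, came from 7 lists of complexes, with 73 genes once the members were removed. These include subunit genes of RNA polymerases other than II. Of these, 24 (32.9%) had a thresholded promoter peak, beside 30.6% of the members and the background of 17.7%, against which the lists below are also to be read. TFIIH and its kinase had 4 of 10 (40%): Ssl1 (922, with 377 in replicate 1 and 546 in replicate 2), Xpd (83.4), mrn (82.8) and Tfb5 (69.6). The Ssl1 peak was stronger than that of any member, but another protein-coding gene had the same pooled and replicate signals, so it cannot be given to Ssl1 alone. The same holds for mrn, Tfb5 and, below, Nelf-E, TH1, NELF-B, skd, Polr1F and Polr1D. Pausing and elongation factor genes had 9 of 20 (45.0%), with Nelf-E, for an RNA-binding subunit of the pausing complex NELF, at 205 (73.7 and 131), TH1 and NELF-B, further NELF subunit genes, at 114 and 61.8, and dre4, for a subunit of the histone chaperone FACT, at 113. Genes of SAGA, the acetyltransferase coactivator that shares several TAFs with TFIID, had 5 of 14 (35.7%), led by Gcn5, its acetyltransferase, at 265 (99.4 and 167) and Ada2b at 219 (117 and 101.3), where the summit lay 429 bp downstream of the TSS.

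None of 7 genes for TBP, TBP-related factors and TAF variants had one, and Tbp itself had a pooled region of 47.1 (17.8 and 25.8). Of the Mediator genes under other symbols 1 of 5 (20.0%) did, skd, for a subunit of the kinase module, at 70.6 (30.3 and 44.7), while kto, its partner, had a pooled region of 22.2. RNA polymerase I had 2 of 7 (28.6%), Polr1F (90.5) and Polr1D (62.9). Shares from lists of this size are descriptive.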

How the data were processed

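Per the deposited README texts, the dm6 lists of peaks and background regions were derived from each replicate's alignments, or from those of both, with 1 further file the texts do not describe. The IDR-thresholded set came from these 3 lists. For the peak caller, the aligner, their versions and the IDR threshold, nothing is stated in the labels or README texts. The authors' deposited signal value of each region was used as given, and so were the summits. The deposited -log10 q value was not used for any result. The dm3 lists were not used. Per the labels, chromatin was sonicated to 200 to 800 bp. Regions on 6 arms were compared with TSSs of all transcripts of Ensembl release 115 (BDGP6, the dm6 assembly), without transposable element entries. A member's replicate value is the strongest region with its summit within 500 bp of a TSS. As many regions as there are thresholded peaks (3995) were taken from each replicate as its strongest. All members may be named, and otherwise neighbours at a shared summit, genes of the related lists and CG18476. Members and lists were chosen with earlier results of these data known. Of the list symbols, rye is a synonym of more than 1 gene and was left out, NELF-B was matched regardless of letter case, and 2 matched through synonyms, 1 of them, Taf9, already a member. The values of 1 of the related lists are not reported here. The assignment of summits to genes was tested on simulated data. Calculations used Python 3.11.15, NumPy 2.4.6, pandas 2.3.3 and Matplotlib 3.10.9.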

Additional observations from a re-analysis of the deposited data

How the results depend on the processing

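The count of 19 members with a promoter peak was 18 within 250 bp, 21 within 1000 bp and 19 with peak midpoints. The shares of all protein-coding genes there were 13.9%, 20.4% and 17.7%. With the most upstream TSS alone the count was 17, beside 15.6%. Without replicate 1 it was 18, beside 17.0%, and without replicate 2 it was 22, beside 18.6%. In the upper part of the thresholded peaks by signal the count fell to 12 in all, 1 Taf and 5 MED genes. The share of protein-coding genes there was 10.2%, and that setting holds fewer peaks by construction. Leaving out a replicate meant taking the 3995 strongest regions of the other, without the IDR threshold. The 18 and 22 members thus repeat counts given above. By class they were 3 to 4 Taf, 3 to 4 TfII, 8 MED and 4 to 6 Polr2 genes, beside 17.0% to 18.6%. The full list of the other replicate gave 39 to 48 members with any listed region, beside 47.7% to 51.7%. DRE was in 1 window with 100 bases to either side of the summit, and its core in 1 with 50 bases, against 0. The median signal ran from 107 to 123. Of 46 alternatives, 41 stayed within 1.5 times the count, or within the replicate spread of the median. No paired analysis was possible because there is 1 group. Depth is unknown, so a missing region may not be read as absence of the protein.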

Other observations

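Taf12, which encodes a histone-fold TAF, is the gene next to CG18476, the gene of the tagged protein. Both lie on the minus strand of 3R, with CG18476 at 11674920-11678116 and Taf12 at 11678386-11679690, 269 bp apart. The thresholded peak at the CG18476 start (3R:11678140-11678422, signal 319) had its summit 120 bp from the end of Taf12 and 1424 bp from the Taf12 TSS, outside the promoter rule. The Taf12 promoter itself was listed in replicate 1 only, with 19.4.

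Motif 1 was more frequent in the promoters of members without a peak. In the window from 250 bp upstream to 50 bp downstream of the most upstream TSS, GGTCACAC on either strand was in 14 of 43 members without a thresholded peak (32.6%) and in 2 of 19 with one (10.5%, Taf4 and Taf5). Over protein-coding genes the share was 7.04% without and 10.8% with a peak, so the order in the members is the reverse of that in all genes. The 14 were MED8, MED10, MED11, MED15, MED19, MED20, MED22, MED23, MED24, Polr2D, Polr2G, Polr2I, Polr2L and Taf1. DRE in the same window was in 7 of 43 (16.3%) and 3 of 19 (15.8%), against 8.15% and 15.0% of protein-coding genes. This contrast was singled out after its values were seen and was not tested. The window also missed the summits at MED6, Taf4 and TfIIA-L, which lie at internal start sites. It missed the TfIIB summit too, 264 bp upstream of the TfIIB TSS.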
